A study of Drosophila melanogaster with 164 samples.

Results

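Whole Drosophila melanogaster larvae with high and with low transcript levels of Jon65Aiv, a digestive serine protease gene of the midgut, were compared. The 80 larval libraries with distinct counts were ranked by the level of Jon65Aiv in CPM (its count scaled to a common library total), and the groups were chosen by these values: the 27 highest were set against the 27 lowest. These 54 libraries are part of 164 in the series, of which 82 came from larvae and 82 from adults of 41 inbred lines. The lines belong to the Drosophila Genetic Reference Panel (DGRP), whose lines were inbred from a wild population, so each line is 1 genotype.

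Both groups held untreated larvae of these lines, and neither carried a transgene or an engineered allele by its labels. All were feeding third-instar larvae, taken from the food before they wandered and not sexed, after rearing on cornmeal, molasses and agar at 25 °C with 12 hours of light. A library was made from the polyadenylated RNA of a pool of whole bodies, with a median of 20 larvae, and samples of the study held 2 to 31 animals. The high group covered 21 lines, with 17 libraries numbered replicate 1 and 10 numbered replicate 2. The low group covered 20 lines, with 9 and 18 libraries, and the 26 libraries between them covered 22 lines.

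The Drosophila midgut digests dietary protein with a large set of secreted serine proteases. Among them are the Jonah genes and the trypsins, many of which sit in clusters of related copies. Enterocytes, the absorptive cells of the midgut, make most of these enzymes, and their transcripts are among the most abundant of feeding larvae.

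Jon65Aiv chose the groups, so its values describe them and are no result. It ran from 22794 to 33993 CPM in the high group (median 27056), from 15842 to 22422 CPM in the middle libraries (median 18929) and from 6578 to 15708 CPM in the low group (median 12675). The levels formed a continuum with no gap at either edge. The last library inside the high group was DGRP804 replicate 1 with 22794 CPM, and the first outside it was DGRP897 replicate 1 with 22422 CPM. At the lower edge, DGRP379 replicate 1 lay outside with 15842 CPM, and DGRP703 replicate 2 lay inside with 15708 CPM.

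**Figure D1:**
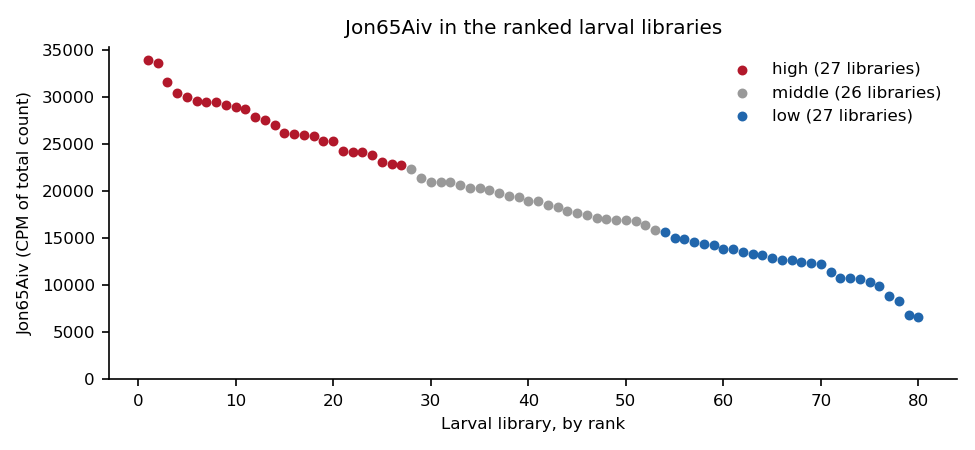
Jon65Aiv level (vertical axis, CPM of the total count) in each of the 80 larval libraries by rank (horizontal axis), coloured by group. The values fall without a step from 33993 to 6578 CPM, so the edges of the groups are set by number alone.

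Both libraries of 6 lines fell in the high group and both of 7 lines in the low group, while 5 lines had 1 library in each. Another 9 lines had 1 high and 1 middle library, and 8 had 1 low and 1 middle library. Library totals ran from 2407244 to 23058506 counts in the high group and from 3439087 to 26429404 in the low group, and their geometric means did not differ past the threshold (8514570 against 9579490, p = 0.437 by a two-sided permutation test over 27 and 27 libraries). The 54 libraries were spread over 12 pools by their pool numbers, of which 10 held both groups. Pools 4 and 7 held low but no high libraries. Of the 80 larval libraries, 76 were closest to the adults of their own line over 500 genes. The larvae labelled DGRP882 replicate 2, DGRP897 replicate 2 and DGRP367 replicate 1, all in the low group, and DGRP911 replicate 2, in the middle, were closest to adults of another line. Without those of these 4 libraries that lay in the low group, 191 genes were higher and 121 lower in the high group, against 206 and 131 with them.

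Of 7413 genes tested, 337 differed between the groups (4.55%) at an adjusted p under 0.05 in edgeR's quasi-likelihood test. In larvae with high Jon65Aiv 206 genes were higher (2.78%) and 131 lower (1.77%). Most differences were small. The median size of the difference among these 337 genes was 0.34 on the log2 scale, against 0.094 over all genes, and 293 of the 337 differed by less than 1.5-fold. No gene separated the groups, since the CPM ranges of both groups overlapped for all 7413 genes tested (0% apart). When the test asked for a difference of at least 1.5-fold (edgeR's glmTreat), 1 gene passed as higher (0.0135%) and 0 as lower (0%), against 15 and 13 at an unadjusted p under 0.05. The groups were formed by a measured transcript, so each p describes an association with Jon65Aiv, and libraries of 1 line share a genotype. The direction of the calls depended on scaling: without TMM factors, which correct library totals for composition, the median of all genes moved to -0.11 and only 8.31% of calls were higher, in place of 61.1%. Beside the groups stood a difference in pools, in replicate numbers and in extraction numbers (median 50 in the high and 70 in the low group). With pool as a factor 53 genes were higher and 26 lower, and 74 of these 79 were among the 337. In the libraries numbered replicate 2 alone (10 high, 18 low) and in those numbered replicate 1 alone (17 high, 9 low), 1 gene passed in each case, and it was Jon65Aiii.

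Of 18 other digestive serine protease genes, 5 rose in larvae with high Jon65Aiv and none fell, where 2.78% of all genes rose. With pool as a factor 2 rose, without TMM factors or with roX1 as a covariate 3 did, and within either replicate number 1 did. In the comparison of groups 17 had a positive log2 fold change, with a median of 0.48 against -0.01 over all genes. Their summed level ran from 34113 to 94264 CPM in the high group (median 49790) and from 21414 to 43304 CPM in the low group (median 32616). The overlap of these ranges held 6 high and 9 low libraries. The middle libraries ran from 30019 to 57592 CPM, and their median of 41492 CPM lay between those of the groups. In this sum abundant genes weigh most, and Jon65Aiii and yip7 weigh heavily. The medians of these genes were 16834 and 12538 CPM in the high group and 8645 and 6328 CPM in the low group.

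Jon65Aiii, a Jonah protease gene, had the strongest association. It ran from 8381 to 25486 CPM in the high group (median 16834), with a median of 12430 CPM in the middle libraries, and from 3614 to 12575 CPM in the low group (median 8645). In 23 of the 27 high libraries it exceeded every low library. Its log2 fold change was 1.15 ± 0.12 (SE, adjusted p = 3.1e-09), and it was the gene that passed the 1.5-fold test (adjusted p = 0.010). The difference was 1.17 with pool as a factor, 1.20 in replicate 2 alone (adjusted p = 9.2e-04) and 1.08 in replicate 1 alone (adjusted p = 0.044). Jonah genes resemble each other in sequence, and how the authors' counting assigned reads that match several copies is not given in the sources used here, so values of single copies are uncertain.

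The gene yip7, which encodes another serine protease of this family, ran from 5827 to 23106 CPM in the high group (median 12538) and from 2152 to 12399 CPM in the low group (median 6328). It was higher than in every low library in 14 of 27 high libraries, and its log2 fold change was 1.12 ± 0.17 (adjusted p = 1.3e-04). Jon99Ciii ran from 492 to 3639 CPM in the high group (median 1469) and from 216 to 1763 CPM in the low group (median 958). Its ranges overlapped more, with 11 high libraries above every low one, and its log2 fold change was 0.89 ± 0.20 (adjusted p = 0.0057). The trypsins epsilonTry (0.60 ± 0.18, adjusted p = 0.044) and thetaTry (0.53 ± 0.16, adjusted p = 0.036) also rose. These members, and others named below outside the stated rule, were picked after their values were seen.

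Not every copy rose. Jon99Ci had a log2 fold change of -0.32 ± 0.44 (adjusted p = 0.74) and alphaTry one of 0.00. Jon25Biii, at 0.81 ± 0.39 (adjusted p = 0.22), and Jon74E, at 0.63 ± 0.40 (adjusted p = 0.37), had large point estimates with wide errors. Jon74E ran from 34.2 to 3209 CPM within the high group and from 6.61 to 3183 CPM within the low group. The spread of this gene within each group was thus far wider than the difference between them.

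The 2 most associated genes are neighbours of Jon65Aiv. By the BDGP6 annotation Jon65Aiv lies on the plus strand of chromosome arm 3L from 6039155 to 6040135. The protein-coding gene yip7 lies 2980 bp away, from 6035216 to 6036175, and Jon65Aiii 10622 bp away, from 6050757 to 6051690, both on the plus strand. Of 7 genes tested within 50000 bp, these 2 passed the threshold as higher, where 2.78% of all genes did. The protease genes Jon65Ai (0.43 ± 0.21, adjusted p = 0.24) and CG10472 (0.53 ± 0.19, adjusted p = 0.088), on the minus strand, did not, and neither did tant, CG13295 and CG6610, whose log2 fold changes lay between -0.19 and 0.14. Jon99Ciii lies on another arm, 3R.

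**Figure D2:**
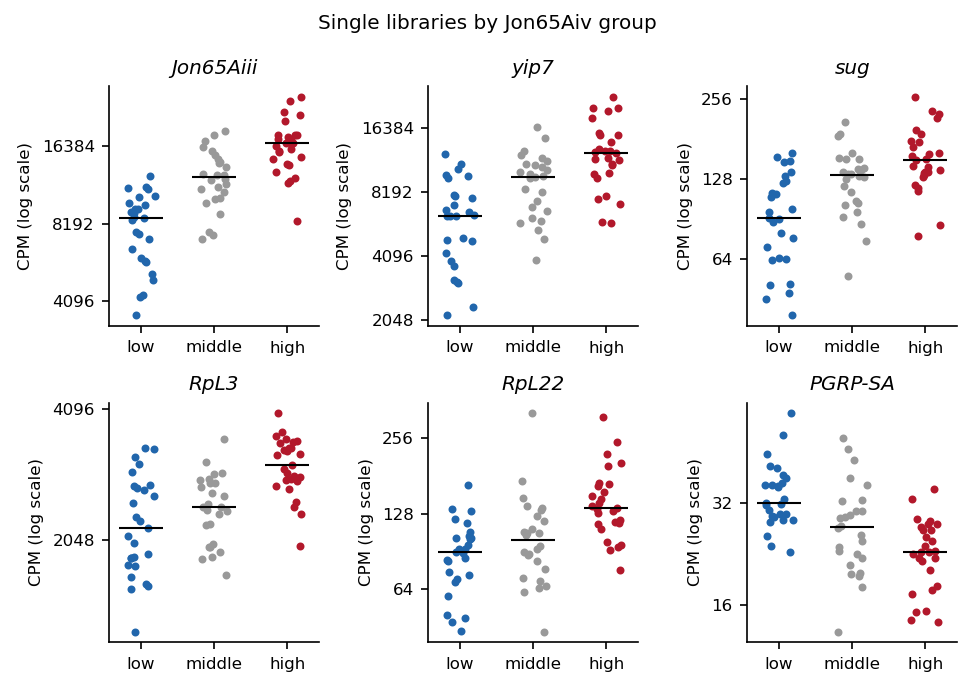
CPM of 6 genes in each library of the low, middle and high Jon65Aiv groups (points, logarithmic axes) with the group median (bar). Jon65Aiii and yip7 shift upwards from low to high with the middle libraries between (medians 8645, 12430 and 16834 CPM for Jon65Aiii), while PGRP-SA shifts downwards (32.1, 27.2 and 23.0 CPM).

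The 5 lines with 1 library in each group allow a comparison within a genotype. The summed level of the digestive proteases was higher in the high library of all 5 lines, by 0.44 to 0.54 on the log2 scale (mean 0.50 ± 0.04, SD). Jon65Aiii and yip7 weigh heavily in this sum, so it does not show a rise across the list. Jon65Aiii was higher in all 5 lines (0.32 to 0.89), and so were yip7 (0.20 to 0.82) and Jon99Ciii (0.28 to 1.43). Of the 54 named genes that were called, 14 had the sign of the group difference in all 5 lines, 28 in 3 or 4 and 12 in 2 or fewer. With 5 pairs the smallest two-sided p a sign test can give is 0.0625. When line entered the fit as a block, 0 genes passed as higher and 1 as lower (157 and 250 at an unadjusted p under 0.05), a fit that these 5 lines alone inform.

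**Figure D3:**
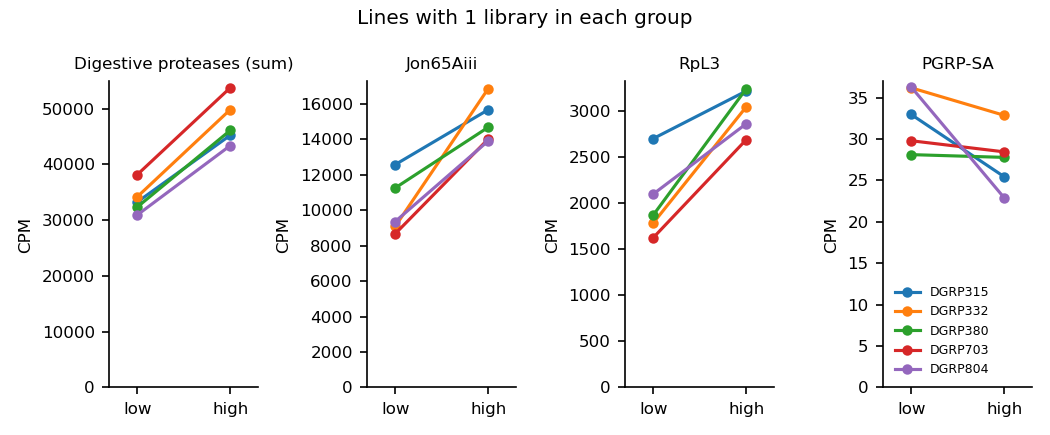
CPM in the low and the high library of each of the 5 lines that had 1 library in each group (lines join the libraries of 1 DGRP line; axes start at 0). The summed digestive proteases, Jon65Aiii and RpL3 are higher in the high library of all 5 lines, and PGRP-SA is lower in all 5.

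None of 8 genes of carbohydrate digestion passed the threshold, and their median log2 fold change was -0.17. Mal-A6, a maltase gene, ran from 6.84 to 479 CPM in the high group (median 86.1) and from 5.43 to 693 CPM in the low group (median 174), and its difference of -0.83 ± 0.35 did not pass (adjusted p = 0.16). Mal-A1 gave -0.76 ± 0.35 (adjusted p = 0.20), with ranges that overlapped almost wholly. None of 3 genes of digestive lipases and sterol uptake, 5 peritrophins and mucins, which line the gut, 9 nutrient transporters or 11 genes of metal handling passed.

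Among 12 genes of enterocyte structure and midgut regulation, 2 rose, against 2.78% of all genes, and none fell, with a median of 0.14. GATAe, a transcription factor of the endoderm and midgut, had medians of 56.3 CPM in the high and 48.9 CPM in the low group, and rose by 0.37 ± 0.09 (adjusted p = 0.013). Within line it was higher in the high library of 2 lines and lower in 3. Myo61F, a brush-border myosin, rose by 0.37 ± 0.11 (adjusted p = 0.037). The summed level of the list had medians of 2378 and 2353 CPM and was lower in the high library of 3 of the 5 lines, and with roX1 as a covariate none of the 12 passed. The structural marker mex1, a small membrane protein of the midgut, differed by 0.02. In whole bodies, fewer cells of a type and less RNA per cell cannot be told apart. The proton pump acidifies organelles and, in the copper cells, the gut lumen. Of 20 members of its list 5 rose, against 2.78% of all genes, and none fell, with a median of 0.14. Vha55 rose by 0.41 ± 0.09 (adjusted p = 0.0035), from a median of 1055 to 1262 CPM, and Vha68-2 by 0.34 ± 0.11 (adjusted p = 0.046). Without TMM factors this list had 2 members higher and 1 lower, and with pool as a factor or with roX1 as a covariate 2 rose. Its summed level was higher in the high library of 2 of the 5 lines and lower in 3.

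Sugarbabe (sug), a zinc-finger transcription factor that responds to dietary sugar and was higher in the high group. It ran from 77.8 to 260 CPM in the high group (median 150), with a median of 132 in the middle libraries, and from 39.5 to 159 CPM in the low group (median 91.5). In 25 of 27 high libraries it exceeded the low median. The log2 fold change was 0.82 ± 0.14 (adjusted p = 3.4e-04), and it was 0.79 with pool as a factor. It was the 1 gene called among 20 of insulin, TOR and nutrient response, whose median was 0.00, where 2.78% of all genes rose. The gene shares strand and position with 1 overlapping gene, which makes its count less certain.

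Cytoplasmic ribosomal protein genes formed the largest group of calls. Of 85 listed, 30 were higher, against 2.78% of all genes, and none lower, with a median log2 fold change of 0.19. The summed level had medians of 131604 CPM in the high and 123438 CPM in the low group, with a wide overlap (107865 to 164107 against 101643 to 170407 CPM). Calls fell to 13 with pool as a factor, to 17 with roX1 as a covariate and to 0 within either replicate number. Without TMM factors 23 members were higher and 5 lower, with a median of 0.08. Within the 5 lines the summed level was higher in the high library of 2 and lower in 3. The list was made by a name pattern and includes RpL24-like, which acts in ribosome assembly.

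RpL22, a protein of the large subunit, had the largest fold on this list. It ran from 76.7 to 312 CPM in the high group (median 136) and from 43.6 to 168 CPM in the low group (median 90.2), a log2 fold change of 0.82 ± 0.13 (adjusted p = 2.2e-04). All but 1 of the high libraries lay above the low median, and the gene was higher in all 5 lines within line. It lies on the X chromosome and overlaps 3 genes on its strand. RpL3, at a far higher level, ran from 1987 to 4006 CPM in the high group (median 3041) and from 1264 to 3337 CPM in the low group (median 2186), a log2 fold change of 0.53 ± 0.09 (adjusted p = 3.4e-04). It too was higher in all 5 lines and kept its call with pool as a factor, and it overlaps 4 genes on its strand. RpL35A rose by 0.63 ± 0.12 (adjusted p = 0.0014), whereas RpL7A rose by 0.22 ± 0.07 (adjusted p = 0.043), so the members differed in size.

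Translation factors had 6 of 44 members higher, against 2.78% of all genes, and none lower, with a median of 0.05. Without TMM factors 5 were higher and 6 lower. None of the 44 passed with pool as a factor, and 2 rose with roX1 as a covariate. Elongation factor gene eEF1alpha1 rose by 0.40 ± 0.10 (adjusted p = 0.013), from a median of 11042 to 13227 CPM, and eEF1gamma rose by 0.34 ± 0.08 (adjusted p = 0.010). Of 14 genes of ribosome biogenesis none passed, and their median was -0.01. The proteasome list had 2 of 32 higher, Prosbeta3 and Rpt4, against 2.78% of all genes, with a list median of -0.02. Without TMM factors 0 were higher and 6 lower, and with pool as a factor none passed. Mitochondrial ribosomal proteins had 2 of 71 higher, mRpS9 and mRpL38, about the share of all genes that rose (2.78%). Without TMM factors 0 were higher and 12 lower.

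Oxidative phosphorylation, the respiratory chain and ATP synthase of mitochondria, had 8 of 65 genes higher, against 2.78% of all genes, and none lower. The list median was 0.19, and 57 of the 65 had a positive fold change. RFeSP, the iron-sulphur subunit of complex III, rose by 0.49 ± 0.13 (adjusted p = 0.023). ATP synthase genes ATPsynD (0.45 ± 0.11, adjusted p = 0.014) and blw (0.41 ± 0.11, adjusted p = 0.023) rose as well, blw from a median of 1174 to 1470 CPM. The summed level hardly differed, with medians of 22136 and 21889 CPM. Without TMM factors 4 members were higher and 2 lower, with pool as a factor 1 rose, and with roX1 as a covariate none passed.

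Lipid breakdown had 2 of 9 members higher, where 2.78% of all genes rose. They were the triglyceride lipase gene bmm (0.43 ± 0.11, adjusted p = 0.015) and the fatty acid oxidation gene Mtpalpha (0.26 ± 0.07, adjusted p = 0.027). All 9 fold changes were positive, with a median of 0.13, but with pool as a factor none passed, and bmm was higher in the high library of only 2 of the 5 lines. None of 13 genes of fatty acid and triglyceride synthesis passed (median -0.04), nor any of 12 genes of glycolysis (median 0.03).

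**Figure D4:**
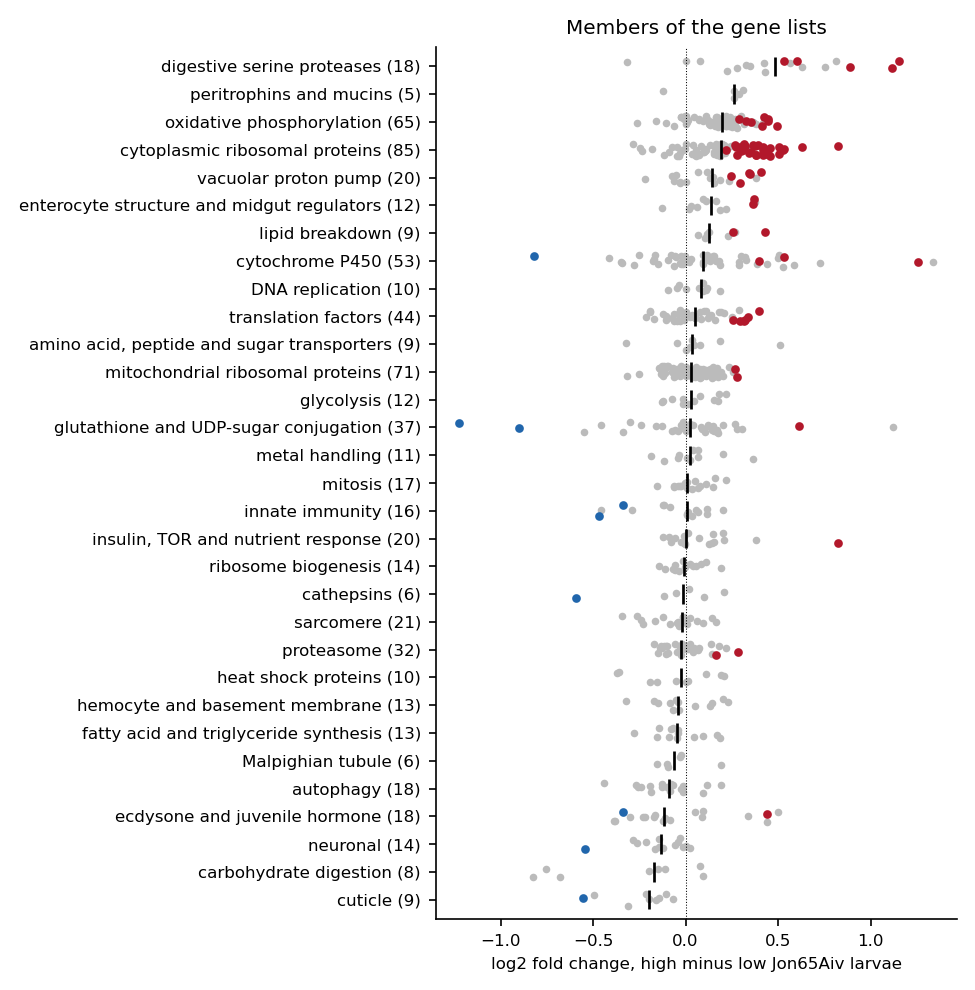
log2 fold change between high and low Jon65Aiv larvae (horizontal axis) for each member of the gene lists with at least 5 members (rows, with the number of members), where grey points did not pass the threshold, red passed as higher and blue as lower, and bars mark list medians. The digestive serine proteases have the highest median, 0.48, and the ribosomal protein and oxidative phosphorylation lists lie to the right of 0 with medians of 0.19.

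Genes lower in larvae with high Jon65Aiv included 2 genes of innate immunity. PGRP-SA, a secreted receptor for bacterial peptidoglycan upstream of the Toll pathway, ran from 14.3 to 35.3 CPM in the high group (median 23.0), with a median of 27.2 CPM in the middle libraries, and from 23.0 to 58.9 CPM in the low group (median 32.1). All 27 low libraries lay above the high median, and 12 lay above every high library. It fell by 0.47 ± 0.08 on the log2 scale (adjusted p = 3.4e-04), kept its call with pool as a factor and was lower in all 5 lines within line. Duox, an oxidase that makes reactive oxygen at the gut surface, fell by 0.34 ± 0.10 (adjusted p = 0.036), but within line it was higher in the high library of 3 of the 5 lines and it did not pass with pool as a factor. They were the 2 genes called among 16 of innate immunity, where 1.77% of all genes fell. None of the 16 rose, and the list median was 0.01.

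CG6357 also fell. It ran from 9.04 to 70.4 CPM in the high group (median 17.6), with a median of 31.5 CPM in the middle libraries, and from 9.47 to 149 CPM in the low group (median 45.2). In 26 of 27 low libraries it lay above the high median, and it fell by 1.02 ± 0.22 (adjusted p = 0.0035). Oat, ornithine aminotransferase, had medians of 81.3, 122 and 161 CPM in the high, middle and low libraries and fell by 0.78 ± 0.22 (adjusted p = 0.032). The glutathione transferases GstD9 (median 52.2 against 101 CPM, adjusted p = 0.012) and GstD10 (35.0 against 56.7 CPM, adjusted p = 0.017) fell, and Ugt303B1 rose by 0.61 ± 0.18 (adjusted p = 0.042). Of 37 conjugation genes 1 thus rose, about the share of all genes (2.78%), and 2 fell, where 1.77% of all genes did. Kr-h1, a transcription factor induced by juvenile hormone, fell by 0.34 ± 0.08 (adjusted p = 0.014) and was lower in all 5 lines. Jheh2, a juvenile hormone epoxide hydrolase, rose by 0.44 ± 0.13 (adjusted p = 0.038). Within line Jheh2 was higher in the high library of 3 of the 5 lines and lower in 2. Within line, Oat and GstD9 were lower in the high library of 3 of the 5 lines and CG6357 in 4. Single members of other lists were lower: the cathepsin gene CtsK2 (-0.59), the cuticle gene Cpr51A (-0.56) and the potassium channel gene Sh (-0.54). They were 1 of 6 cathepsin, 1 of 9 cuticle and 1 of 14 neuronal genes, where 1.77% of all genes fell.

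Several of the largest folds rested on a few lines. Sans, a scaffold protein of the Usher complex, had the largest positive log2 fold change, 1.61 ± 0.45 (adjusted p = 0.028), but medians of 14.8 and 12.9 CPM, and the 4 high libraries above every low one came from DGRP774, DGRP796 and DGRP801. Prx6c, a peroxiredoxin gene, had a log2 fold change of 1.45 ± 0.45 (adjusted p = 0.049), yet its median was 21.1 CPM in the high and 22.4 CPM in the low group. Kpc1, a ubiquitin ligase gene, had the largest negative one, -1.73 ± 0.44 (adjusted p = 0.015), with medians of 15.6 and 17.4 CPM, and 2 low libraries, both of DGRP158, above every high one. Of the 44 calls of at least 1.5-fold, 10 had group medians within 1.2-fold of each other. Cyp6a8, a cytochrome P450 gene linked to detoxification, ran up to 1678 CPM in the high group but had medians of 72.8 and 59.4 CPM (1.26 ± 0.36, adjusted p = 0.032). In the other direction, ple, tyrosine hydroxylase, had medians of 14.7 and 16.0 CPM (-1.35 ± 0.37, adjusted p = 0.023), and 3 low libraries stood above every high one.

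In the marker lists of other tissues, calls were limited to 1 neuronal and 1 cuticle gene. None of 21 sarcomere genes passed (median -0.02), nor any of 3 fat body, 3 oenocyte, 13 hemocyte and basement membrane, 6 Malpighian tubule or 4 salivary gland genes, 10 of DNA replication or 17 of mitosis. The 19 lists with no call held 181 genes, of which 24 had an unadjusted p under 0.05 in edgeR. Over all 7413 genes 1552 did (20.9%). Lists picked for having no call leave out the smallest p values, so these shares cannot be compared. The fat body list rests on apolpp, Apoltp and Mtp, and its summed level had medians of 5251 CPM in the high and 6356 CPM in the low group. The oenocyte gene Cyp4g1 had medians of 220 and 197 CPM (0.29 ± 0.18, adjusted p = 0.37). The roX1 RNA, which is made in males, had medians of 194 CPM in the high and 249 CPM in the low group (-0.39 ± 0.16, adjusted p = 0.15), and with its level as a covariate 90 genes were higher and 65 lower. The part of a different sex mix in the results was not tested further.

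Genes of the small chromosome 4, looked at after the values were seen, were often lower in high Jon65Aiv larvae. Of 67 tested, 15 were lower (22.4%, against 1.22% to 2.23% on the other large arms), none was higher, and 57 had a negative fold change, with a median of -0.19. Their summed level ran from 14197 to 24132 CPM in the high group (median 18740) and from 14518 to 32397 CPM in the low group (median 21696), so the ranges overlapped widely. It was lower in the high library of all 5 lines within line, by 0.03 to 0.70 on the log2 scale. The sum weighs abundant genes most, and apolpp, RpS3A and ATPsynbeta (means of 5749, 3813 and 3274 CPM) were not called. Of these, apolpp is also on the fat body list and had medians of 4919 CPM in the high and 6044 CPM in the low group. With pool as a factor 2 of the 67 passed as lower (median -0.16), and with roX1 as a covariate 6 did (median -0.10). Examples were CG31997 (-0.58), the glutamate receptor-like CG11155 (-0.56), the kinase gene CaMKI (-0.33) and the GABA transporter gene Gat (-0.88), which overlaps 2 genes on its strand. Gat had medians of 17.8 CPM in the high and 23.7 CPM in the low group, where it ran up to 193 CPM. With pool as a factor CG31997 and CaMKI passed, and CG11155 and Gat did not.

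**Figure D5:**
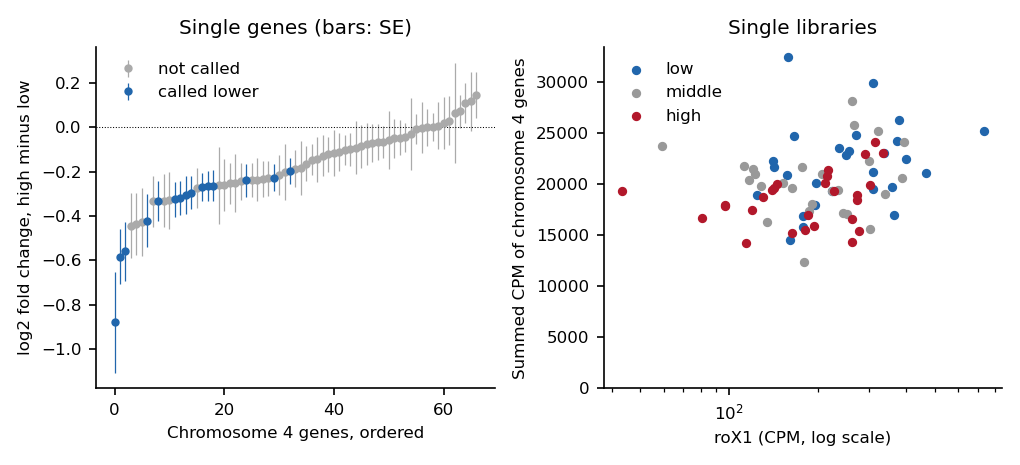
Left, log2 fold change with its SE for the 67 genes of chromosome 4 in order, of which 15 are lower in high Jon65Aiv larvae (blue) and none higher. Right, summed CPM of these genes against roX1 (logarithmic axis) in each library, where the high group (median 18740 CPM) lies lower than the low group (median 21696 CPM) with a wide overlap.

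Libraries that formed neither group gave a further view. Of the 337 called genes, the median of the 26 middle libraries lay between those of the groups for 285 (84.6%), against 56.1% of all genes tested. Called genes were selected for a gap between the groups, and a wider gap holds the middle median more often, so these shares cannot be compared. Of the 26 libraries, 9 shared a line with a high library and 8 with a low library. Inside these 26 libraries the slope on Jon65Aiv had the same sign as the group difference for 295 of the 337 (87.5%, against 68.2% of all genes), but 0 genes passed an adjusted p of 0.05 there (0%), with 477 at an unadjusted p under 0.05 (6.43%). Their Jon65Aiv values span a narrower range than those of the groups. With all 80 libraries in 1 fit of the slope, which includes the 54 of the groups, 663 genes rose with Jon65Aiv (8.94%) and 682 fell (9.2%), and 331 of the 337 were among them. In that fit 10 of the 18 digestive serine proteases rose and none fell.

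Adults of the same lines were compared as a check on libraries the ranking did not use. The adults of the 6 lines with both larval libraries in the high group were set against those of the 7 lines with both in the low group, with the counts of each line summed. None of 7413 genes passed in edgeR (0%), and 248 had an unadjusted p under 0.05 (3.35%). Of the 337 larval calls 228 had the same sign in adults (67.7%, against 57.3% of all genes), 14 of them at an unadjusted p under 0.05. Jon65Aiii ran from 1036 to 3818 CPM in adults of the high lines (median 1841) and from 953 to 3086 CPM in adults of the low lines (median 1891), so the ranges overlapped almost wholly. Adult yip7 had medians of 2548 and 2138 CPM, and adult PGRP-SA medians of 19.8 and 19.2 CPM.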

How the data were processed

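RNA was measured in pools of whole larvae and adults with stranded, polyA-selected libraries. The authors deposited unnormalized counts for 7414 genes, none below 11 in any library. FastQC, Trimmomatic, STAR and the builds BDGP6 and dm6 are named per the submitters' processing notes; the counting tool is not given in the sources used here. Both larval columns with identical counts (DGRP787 replicate 1, DGRP491 replicate 2) were left out. Symbols and positions for 7349 identifiers came from the Ensembl BDGP6 annotation, and 65 were not found.

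Jon65Aiv was removed before scaling and testing. CPM values are of the total count, while fold changes include TMM factors (edgeR 4.0.16, limma 3.58.1, DESeq2 1.42.0, R 4.3.3; Python 3.11.15, numpy 2.4.6, scipy 1.17.1, pandas 2.3.3, matplotlib 3.10.9). The quasi-likelihood F test with the Benjamini-Hochberg adjustment over 7413 genes was the main test. No filter on low counts was used. On simulated data, 27 against 27 libraries, the test recovered 89% of genes changed 1.5-fold and 98% of those changed 2-fold, with 5.08% false calls. The simulated libraries were independent, without shared lines, pools or replicate numbers. In the measured libraries the consensus correlation within a line was 0.27 in limma, so the simulated rates need not hold for them. Within a group, samples are separate libraries of lines, and the labels give replicate numbers without pairing them.

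Members, gene lists and tests were chosen with earlier results of these data known. Named genes were the 15 largest folds each way among called genes that averaged at least 10 CPM over the 54 libraries, the 2 most abundant called members of each of 36 lists at any level, and Cyp4g1 and roX1. The lysozyme list had no member in the table.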

Additional observations from a re-analysis of the deposited data

How the results depend on the processing

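Against 206 genes higher and 131 lower, counts fell to 94 higher but rose to 1037 lower without TMM factors, and fell to 53 and 26 with pool as a factor, to 90 and 65 with roX1 as a covariate and to 0 and 1 with line as a block. The replicate block (replicate number as a factor) gave 120 and 84, with 192 of the 337 calls kept. The labels do not say what libraries of 1 replicate number share. Replicate numbers in part followed the order of the extraction numbers, and the part of extraction order in the results was not tested. Within 1 replicate number, counts were 1 to 1 higher and 0 to 0 lower (unadjusted 360 and 259, then 512 and 664). The slope over all 80 larval libraries gave 663 and 682, keeping 331 of the 337. DESeq2's Wald test gave 276 and 202. Chosen after the data were seen, the replicate block with pool gave 17 and 11, and the slope with pool 592 and 545, keeping 295 of the 337. The single gene past 1.5-fold became 0 with pool, with either replicate number left out and with both terms. DESeq2 size factors, a 5 CPM minimum, library total, leaving out doubtful libraries and limma-voom with line as a random block kept both counts within 1.5 times. Among named genes the sign turned with line as a block for Sans (-0.11), Liprin-gamma (-0.19), Mettl3 (0.20), CtsK2 (0.068) and roX1 (0.10), in DESeq2 for Liprin-gamma (-0.044) and Kpc1 (0.045), and for ple when a replicate number was left out (-1.97 to 0.17). The cause was not tested. Of the 54 named genes that were called, 41 lost their call with pool as a factor. The adult comparison gave 0 genes in each of its 4 alternatives. The one without lines DGRP882, DGRP897 and DGRP911 repeated the main fit, since none of these lines was in the comparison. What can be said within a genotype is limited by the 5 lines that had a library in each group.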

Other observations

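When the level of Jon65Aiv was used as a number over all 80 larval libraries in place of groups, 663 of 7413 genes rose with it (8.94%) and 682 fell (9.2%) in edgeR. Of 18 genes of ecdysone and juvenile hormone response, 9 fell and 3 rose with Jon65Aiv. Per doubling of Jon65Aiv, the ecdysone receptor gene EcR fell by 0.27 ± 0.07 on the log2 scale (adjusted p = 0.0057), and its early target genes br and Eip74EF fell by 0.45 ± 0.11 (adjusted p = 0.0037) and 0.42 ± 0.09 (adjusted p = 5.6e-04). Kr-h1 fell by 0.32 ± 0.06 (adjusted p = 4.2e-05). The 3 that rose were the juvenile hormone epoxide hydrolase genes Jheh1 (0.44), Jheh2 (0.40) and Jheh3 (0.34), which lie in 1 cluster and resemble each other. With pool as a factor in this slope 6 fell and 3 rose. In the comparison of groups 1 member passed each way, and br (-0.38) and Eip74EF (-0.38) did not pass there (adjusted p = 0.21 and 0.089).

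Of 18 autophagy genes 5 fell and 1 rose with Jon65Aiv over the 80 libraries. Atg1, the kinase that starts autophagy, fell by 0.26 ± 0.06 (adjusted p = 6.1e-04) and Atg7, a conjugating enzyme, by 0.31 ± 0.09 (adjusted p = 0.011). None of the 18 passed in the comparison of groups, where 3 had a positive fold change. In the slope with pool as a factor 3 fell and 0 rose, and in the comparison of groups with pool as a factor none passed. In the slope over the 80 libraries without pool, 38 of 65 genes of oxidative phosphorylation and 49 of 85 cytoplasmic ribosomal protein genes rose. None of either list fell.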
